A study of Mus musculus with 6 samples.

Results

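Metallothioneins are small cysteine-rich proteins that bind zinc and copper and take up cadmium. Mt1 and Mt2 were followed in 3 mouse B cell lines, together with 2 genes of their control circuit: Mtf1, the zinc-sensing transcription factor that switches metallothionein genes on, and Slc30a1, the zinc exporter of the plasma membrane. The members were taken by name, and all 4 of 4 were found among the 37315 genes of the abundance table. They were selected on their TPM (transcript abundance scaled to transcript length and library total) and maternal share in these same libraries. Since the members were chosen by those same values, the values are given as a description, without a test.

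Each line, named Abl.2, Abl.3 or Abl.4, is 1 clone of immortalised B cells with an F1 background of 129S1/SvImJ and CAST/EiJ mice. Abl.3 is labelled as male and the other lines as female. All 3 were kept in the control condition, medium with 1% DMSO (a solvent), and live cells were taken from a density gradient on day 2, so no line had a treatment that the others lacked. Each line has 2 libraries, which are repeat library preparations and not separate clones or animals. Differences between lines can thus be set only against the spread between preparations. Allelic counts, reads that could be assigned to the maternal or the paternal allele, came to between 18362319 and 26881211 per library. B lineage markers were present throughout: 10 of 10 reached 1 TPM, and their summed level was 14430 to 16580 TPM. None of the 5 T cell, 5 erythroid or 5 fibroblast markers reached 1 TPM in any library.

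In resting cells, much of the free zinc of the cytoplasm is buffered by metallothioneins. When zinc rises, MTF1 moves to the nucleus and binds metal response elements, short DNA motifs upstream of Mt1, Mt2 and Slc30a1, so that the cell makes more zinc-binding protein and more exporter. Oxidative stress and glucocorticoids are also known to raise Mt1 and Mt2. The genes Mt1 and Mt2 are neighbours on chromosome 8, in the same orientation.

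The promoters of Mt1, Mt2 and Slc30a1 are shown because they hold the letters of the metal response element. Sequences are those of RefSeq (GRCm38.p6), where 4 of 4 members were found, from 250 bases before the start site, which is position 0, to position 15. All are on the + strand, and capitals mark matches to the core TGCACNC or TGCGCNC on either strand. The regions are chr8:94178839-94179104 for Mt1, chr8:94172368-94172633 for Mt2 and chr1:191906531-191906796 for Slc30a1.
Mt1: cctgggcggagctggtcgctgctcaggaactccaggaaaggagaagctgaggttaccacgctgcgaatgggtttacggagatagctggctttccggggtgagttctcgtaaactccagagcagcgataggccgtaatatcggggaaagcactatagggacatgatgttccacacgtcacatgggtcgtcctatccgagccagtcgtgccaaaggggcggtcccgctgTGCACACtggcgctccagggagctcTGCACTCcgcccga
Mt2: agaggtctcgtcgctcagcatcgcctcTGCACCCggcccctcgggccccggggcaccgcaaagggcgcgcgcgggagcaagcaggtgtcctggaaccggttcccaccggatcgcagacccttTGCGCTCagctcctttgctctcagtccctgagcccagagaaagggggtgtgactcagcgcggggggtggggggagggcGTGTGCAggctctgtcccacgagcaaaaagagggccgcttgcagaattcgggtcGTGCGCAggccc
Slc30a1: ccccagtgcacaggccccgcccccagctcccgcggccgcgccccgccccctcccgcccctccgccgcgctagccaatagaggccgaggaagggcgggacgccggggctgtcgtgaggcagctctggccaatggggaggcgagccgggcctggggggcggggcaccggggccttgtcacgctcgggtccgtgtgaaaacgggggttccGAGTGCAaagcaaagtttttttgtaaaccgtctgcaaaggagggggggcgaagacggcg
Over windows of 300 bases that reach 50 bases past the start, Mt1 had 3 matches, Mt2 had 4 and Slc30a1 had 2. The matches beyond the printed stretch are at positions 20 to 26 in Mt1 and 30 to 36 in Slc30a1. The Mtf1 window had 0 matches, which says only that these letters are not in it. Of 32851 promoters of the same length, 25.7% held at least 1 match, 6.14% at least 2, 1.31% at least 3 and 0.295% at least 4. A match is not evidence of binding. GENCODE M21 also annotates other starts. Counted from the start site used here, 2 of the 3 Mt1 transcripts start at 122 and 152, both Mt2 transcripts at 46 and 242, and 1 of the 2 Slc30a1 transcripts at 475. The Mt2 stretch shown thus ends before the first base that GENCODE M21 gives to Mt2. An Mtf1 transcript starts at -445, and nothing outside the windows was searched. All 4 windows were rich in CpG, the dinucleotide at which mammalian DNA is methylated, with 24 CpG in Mt1, 24 in Mt2, 25 in Mtf1 and 36 in Slc30a1 against a median of 7 over all promoters. Such counts are not rare. Fewer CpG than in Mt1 were found in 80.0% of all promoters, and the same 80.0% holds for Mt2. For Mtf1 it was 81.6% and for Slc30a1 93.8%. No methylation or binding data were analysed here.

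Mt1 (ENSMUSG00000031765, chromosome 8, 94179082 to 94180327, 3 exons in its first transcript) was among the abundant transcripts of Abl.2 and Abl.3 but not of Abl.4. Its abundance was 949.69 and 884.05 TPM in the libraries of Abl.2, 721.27 and 741.29 TPM in Abl.3, and 50.12 and 69.11 TPM in Abl.4. By level it ranked 149 and 154 among all genes in Abl.2, 211 and 216 in Abl.3, and 3703 and 2849 in Abl.4. Every library of Abl.2 and Abl.3 lay far above both libraries of Abl.4, and the libraries of no pair of lines overlapped. Over all 11003 genes tested with limma, 39.8% differed in abundance in the pair Abl.2 and Abl.3, 33.5% in Abl.2 and Abl.4, and 38.1% in Abl.3 and Abl.4. Pairs are given in this order throughout, and each line enters 2 of them.

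Mean Mt1 abundance was 916.9 ± 46.4 TPM for Abl.2, 731.3 ± 14.2 for Abl.3 and 59.61 ± 13.4 for Abl.4 (SD, n = 2). Abl.2 was 15.4-fold and Abl.3 12.3-fold above Abl.4. These ratios correspond to differences of 3.94 and 3.61 in log2(TPM + 1), beside a spread between libraries of 0.33 and 0.32 on that scale. The order of Abl.2 and Abl.3 is less sure: the difference was 0.33 with the deposited TPM but -0.059 when the allelic counts of both alleles were summed and scaled by TMM. In bulk RNA, fewer cells with the transcript and less transcript per cell cannot be told apart.

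Mt2 (ENSMUSG00000031762, chromosome 8, 94172664 to 94173568) was lower than Mt1 in every library. It had 44.78 and 43.07 TPM in the libraries of Abl.2, 72.54 and 79.77 in Abl.3, and 4.24 and 7.49 in Abl.4. Abl.4 was again the lowest line, but here the libraries of Abl.3 stood above those of Abl.2. Abl.3 was 1.73-fold above Abl.2 and 13.0-fold above Abl.4, and Abl.2 was 7.49-fold above Abl.4. The gap between Abl.2 and Abl.3 was wider by allelic counts, which are given below. The log2(TPM + 1) differences were 2.75 for Abl.2 and 3.53 for Abl.3 against Abl.4, with spreads of 0.49 and 0.50.

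The ratio of Mt1 to Mt2, both in TPM, was 21.2 and 20.5 in Abl.2, 9.94 and 9.29 in Abl.3, and 11.8 and 9.23 in Abl.4. The ratio of Abl.2 thus lay above that of the other lines in both libraries, and Abl.3 and Abl.4 overlapped. Mt2 carries a caveat that Mt1 does not: the antisense gene Gm45774 overlaps it, and 45.8% of the 50-base words of Mt2 transcripts also occur in that gene, against 0.0% for Mt1. Whether reads were counted by strand is not given in the sources used here. The other metallothioneins of the cluster, Mt3 of the brain and Mt4 of stratified epithelia, were close to absent: Mt3 was at 0.34 TPM in 1 library of Abl.3 and listed at 0 in the others, and Mt4 was listed at 0 in all 6.

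**Figure D1:**
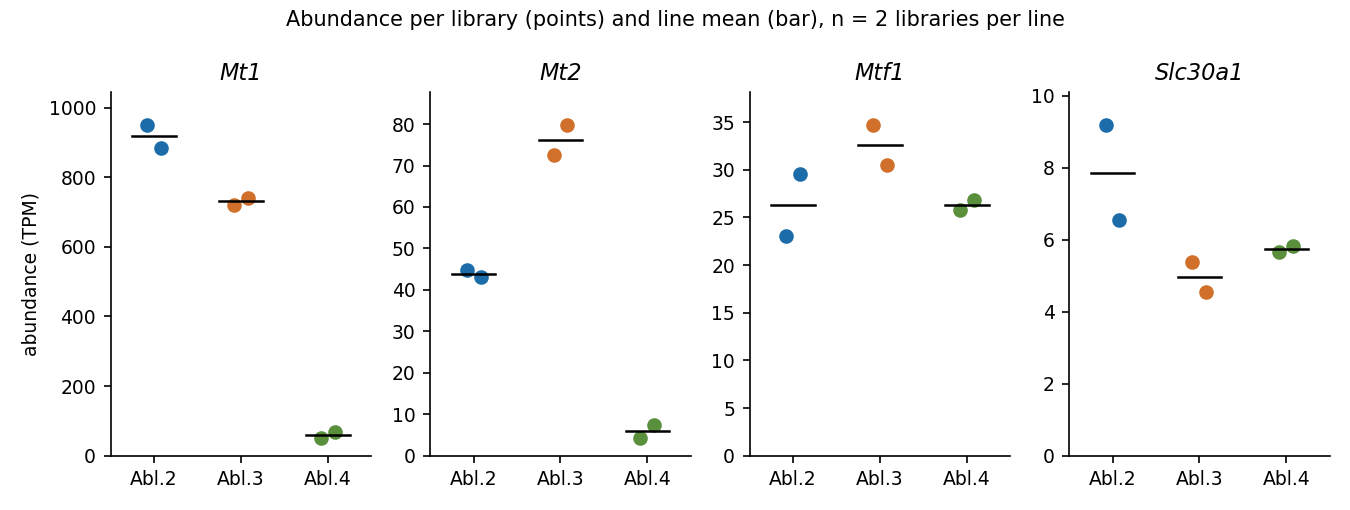
Abundance of Mt1, Mt2, Mtf1 and Slc30a1 in TPM (vertical axes, each starting at 0) in the 2 libraries of each line (points) with the line mean (bar). Mt1 and Mt2 are low in Abl.4, at 50.12 to 69.11 and 4.24 to 7.49 TPM, whereas Mtf1 stays between 23.02 and 34.7 TPM in all 6 libraries.

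The regulator did not share this pattern. Mtf1 (ENSMUSG00000028890, chromosome 4, 124802104 to 124849800, 11 exons) had 23.02 and 29.61 TPM in the libraries of Abl.2, 34.7 and 30.49 in Abl.3, and 25.76 and 26.79 in Abl.4. The libraries of Abl.2 and Abl.4 overlapped, with means of 26.31 ± 4.66 and 26.27 ± 0.728 TPM (SD, n = 2), although Mt1 differed 15.4-fold between these lines. Abl.3 had a mean of 32.59 ± 2.98 TPM, 1.24-fold that of Abl.4. Slc30a1 (ENSMUSG00000037434, chromosome 1, 191906767 to 191913247, 2 exons) was lower, with 9.19 and 6.54 TPM in Abl.2, 5.39 and 4.55 TPM in Abl.3, and 5.65 and 5.83 TPM in Abl.4. The libraries of Abl.2 were above the rest, 1.58-fold the mean of Abl.3 and 1.37-fold that of Abl.4. Between Abl.3 and Abl.4 the difference was -0.18 in log2(TPM + 1), and it turned to 0.15 after quantile normalisation. mRNA level says nothing of where MTF1 protein sits or of zinc, which were not measured. Mtf1 carries a caveat as well: 1110065P20Rik, which overlaps its end on the other strand, had 25.2 to 46.87 TPM. That gene was also higher in Abl.3 than in Abl.4, by 0.58 in log2(TPM + 1) (limma adjusted p = 0.0306). Its part in the level of Mtf1 was not tested.

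The alleles of Mt1 were used in opposite ways in Abl.2 and Abl.3. The 2 libraries of Abl.2 had 5307 maternal and 159 paternal counts, and 6866 and 207. Those of Abl.3 had 238 maternal and 4566 paternal counts, and 259 and 4915. The maternal share of a gene's allelic counts was 0.9709 and 0.9707 in Abl.2 and 0.04954 and 0.05006 in Abl.3.

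Replicate libraries of either line differed by less than their counting error. The 95% Wilson intervals were 0.9661 to 0.975 and 0.9665 to 0.9744 in Abl.2 and 0.04376 to 0.05605 and 0.04444 to 0.05634 in Abl.3. Reads carry no molecular identifiers, so these intervals cover counting error only. In Abl.4, with 213 maternal and 91 paternal counts in the first library and 308 and 107 in the second, the share was 0.7007 and 0.7422. Abl.4 lay between the other lines and expressed both alleles, at a mean share of 0.7214 ± 0.0293 (SD, n = 2). The authors' deposited table gives Mt1 fractions of 0.97, 0.05 and 0.72 for the 3 lines, with limits of 0.54 to 0.88 for Abl.4.

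The minor allele of Mt1 was low but present. It made up 2.909% and 2.927% of the counts in Abl.2 and 4.954% and 5.006% in Abl.3. For scale, the 554 tested genes of chromosome 4, of which Abl.2 shows almost only the maternal allele, had a median paternal share of 0.198%. The 222 tested X genes of the male line Abl.3 had a median paternal share of 0.101%. Of those genes, 15 on chromosome 4 and 4 on X lay above the minor share that Mt1 had in the same line. In Abl.3 this sets a paternal share on X beside the maternal allele of Mt1, so the alleles differ. The X genes of Abl.2 and Abl.4, which show almost only the paternal allele, had median maternal shares of 0.00115 and 0.000653.

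Multiplying TPM by the allelic share places the low line beside the others. The maternal allele of Mt1 then gave 922.1 and 858.2 TPM in Abl.2, 35.73 and 37.11 TPM in Abl.3, and 35.12 and 51.29 TPM in Abl.4. The paternal allele gave 27.63 and 25.87 TPM in Abl.2, 685.5 and 704.2 TPM in Abl.3, and 15.0 and 17.82 TPM in Abl.4. Of the 6 combinations of allele and line, 2 were high, the maternal allele of Abl.2 and the paternal allele of Abl.3, and the other 4 had means between 16.41 and 43.2 TPM.

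The high alleles were 20.6-fold (maternal, Abl.2) and 42.3-fold (paternal, Abl.3) above the same allele in Abl.4. The maternal allele of Abl.3 overlapped that of Abl.4 in its libraries. For the paternal allele, Abl.2 was 1.63-fold above Abl.4 by TPM and 1.49-fold by CPM (allelic counts scaled to the library total), without overlap. This split assumes that the share at the SNP positions holds for the whole transcript. The same ratios from CPM, which do not use TPM, were 18.8-fold for the maternal allele of Abl.2 and 50.3-fold for the paternal allele of Abl.3, each against Abl.4.

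**Figure D2:**
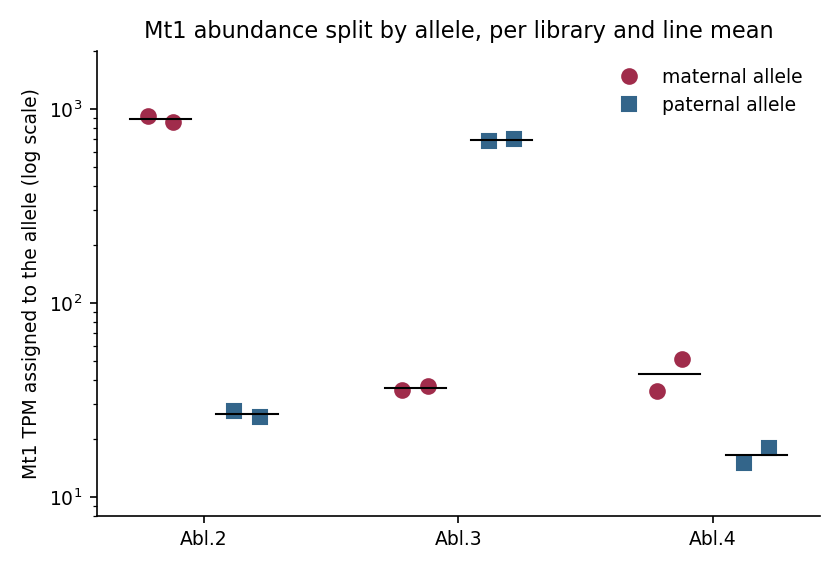
Mt1 abundance assigned to each allele, as TPM times allelic share on a log axis, in the 2 libraries of each line (circles maternal, squares paternal) with the mean (bar). The maternal allele of Abl.2 at 858.2 to 922.1 TPM and the paternal allele of Abl.3 at 685.5 to 704.2 TPM stand above the other 4, which lie between 15.0 and 51.29 TPM.

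Mt2 showed the same sides as Mt1 at far fewer counts. Abl.2 had 47 maternal and 2 paternal counts in one library and 43 and 4 in the other, for shares of 0.9592 and 0.9149. Abl.3 had 0 maternal and 84 paternal counts in one library, which allows a share of up to 0.03571 by the limit of 3 counts and 0.04373 by the 95% Wilson interval, and 2 and 118 in the other, a share of 0.01667. The 95% Wilson intervals, which cover counting error only, ran from 0.8007 to 0.9887 over both libraries of Abl.2 and from 0 to 0.05874 over those of Abl.3.

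In Abl.4, Mt2 had 4 and 9 allelic counts, under the minimum of 20, and so no share is given. The expressed allele of Mt2 had 42.95 and 39.4 TPM in Abl.2 (maternal) and 72.54 and 78.44 TPM in Abl.3 (paternal). Because of its counts in Abl.4, Mt2 was not among the 8702 genes tested for allelic differences. The authors' deposited table gives Mt2 fractions of 0.94 with limits of 0.56 to 1 in Abl.2 and 0.01 with limits of 0 to 0.21 in Abl.3.

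Mtf1 was one-sided in Abl.2 only among the 3 lines. It had 685 maternal and 4 paternal counts in one library of Abl.2 and 868 and 1 in the other, for shares of 0.9942 and 0.9988. In Abl.3 the shares were 0.4359 and 0.4898 and in Abl.4 0.5775 and 0.5129. Mtf1 lies on chromosome 4, where the median maternal share was 0.998 for Abl.2, 0.507 for Abl.3 and 0.499 for Abl.4, which is beside its own 0.9965, 0.4628 and 0.5452. In Abl.2, the maternal allele of Mtf1 had 26.23 ± 4.73 TPM, while the other lines had 15.03 ± 0.141 (Abl.3) and 14.31 ± 0.806 (Abl.4), each as mean and SD with n = 2. The paternal allele had 0.08383 TPM in Abl.2, 17.57 in Abl.3 and 11.96 in Abl.4.

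Both alleles of Slc30a1 were expressed in every line. Its shares were 0.5814 and 0.6279 in Abl.2, 0.5802 and 0.4043 in Abl.3, and 0.5357 and 0.6462 in Abl.4, from 47 to 129 counts per library. The 95% Wilson intervals held 0.5 in 4 of the 6 libraries and lay above it in Abl.2 replicate 2 (0.5419 to 0.7065) and Abl.4 replicate 2 (0.5248 to 0.7512). The libraries of Abl.4 overlapped those of both other lines, and those of Abl.2 lay just above those of Abl.3. The gene 1700034H15Rik overlaps Slc30a1 on the other strand, and 8.01% of the 50-base words of Slc30a1 occur in it, at 0 to 0.76 TPM. In Abl.3, where Mt1 was 0.0498 ± 0.000368 maternal, Mtf1 was at 0.4628 ± 0.0381 and Slc30a1 at 0.4923 ± 0.124 (SD, n = 2).

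**Figure D3:**
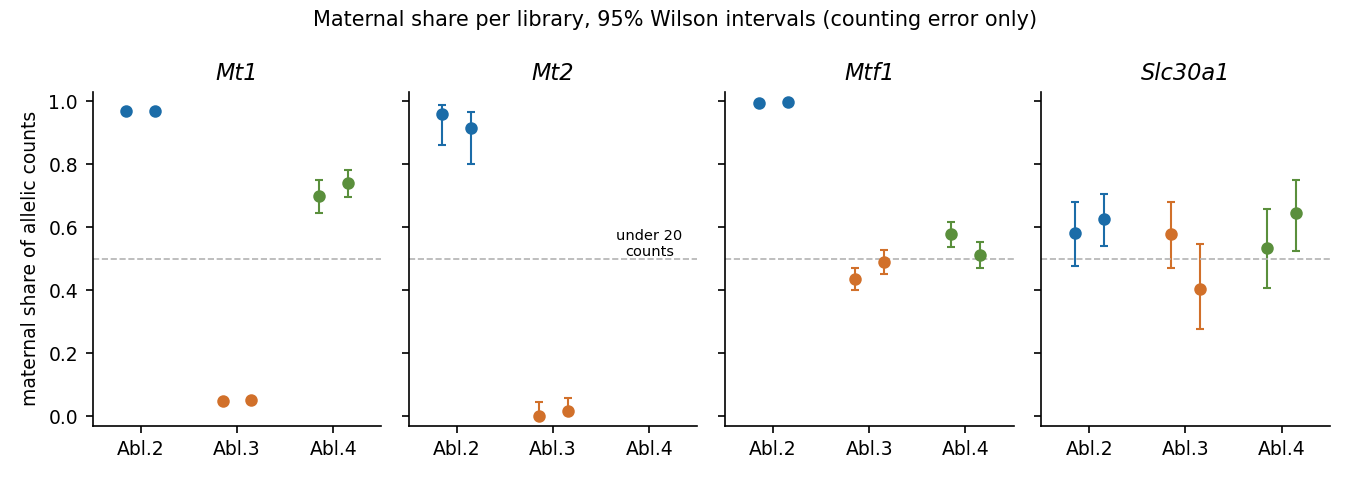
Maternal share of allelic counts (vertical axis, 0 to 1) per library with 95% Wilson intervals, for the 4 genes in the 3 lines; the dashed line is 0.5. Mt1 is at 0.97 in Abl.2, 0.05 in Abl.3 and 0.70 to 0.74 in Abl.4, and Mt2 has no share in Abl.4.

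Whether genes beside the members differed in the same way was asked next, with the edgeR quasi-likelihood test of allelic differences fitted over all 8702 genes. Of these, 28.4%, 22.3% and 16.5% differed in the 3 pairs. Within 1 Mb of Mt1 lay 43 genes other than Mt2, 14 of them tested. Of the 14, 5, 2 and 4 differed in the 3 pairs. The median maternal share of the 14 was 0.529 for Abl.2, 0.502 for Abl.3 and 0.524 for Abl.4, with 10, 11 and 10 of them between 0.3 and 0.7. Their shares ran from 0.0551 to 0.762 in Abl.2, from 0.021 to 0.9 in Abl.3 and from 0.0133 to 0.845 in Abl.4. Unequal use of the alleles within a line passed the test for 8, 6 and 7 of the 14 in the 3 lines, against 49.1%, 45.1% and 39.9% of all genes (edgeR). The sum of 11 calls fell to 6 without Abl.3 replicate 1 and to 7 without Abl.3 replicate 2.

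The share of Mt1 differed by 0.921 between Abl.2 and Abl.3, and the largest difference among the 14 neighbours was 0.3003. The nearest tested gene downstream is Nup93, a scaffold protein of the nuclear pore, which starts 35.5 kb after the start of Mt1. Its share was 0.534 ± 0.017 for Abl.2, 0.492 ± 0.0015 for Abl.3 and 0.522 ± 0.0016 for Abl.4 (SD, n = 2), and the difference between Abl.2 and Abl.3 did not pass the threshold (edgeR adjusted p = 0.0937). On the other side, Bbs2, a subunit of the BBSome that carries cargo in cilia, starts 111.1 kb before Mt1. It had 0.568 ± 0.0084 for Abl.2, 0.543 ± 0.042 for Abl.3 and 0.734 ± 0.039 for Abl.4 (SD, n = 2), and its largest difference, Abl.3 against Abl.4, did not pass either (edgeR adjusted p = 0.0845). Within Abl.4, where Mt1 had a share of 0.7214, unequal use of the Bbs2 alleles did pass (edgeR adjusted p = 3.02e-03). It did not pass within Abl.2 (0.284) or Abl.3 (0.527).

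A share difference of at least 0.2 was found in 1 neighbour, Cpne2, a calcium-dependent phospholipid-binding protein that starts 353.9 kb after Mt1. Its share was 0.746 ± 0.0041 for Abl.2, 0.446 ± 0.016 for Abl.3 and 0.525 ± 0.055 for Abl.4 (SD, n = 2). Abl.2 differed from Abl.3 (edgeR adjusted p = 2.53e-06) and from Abl.4 (edgeR adjusted p = 3.37e-05), and its TPM of 29.57 to 35.15 did not pass the test between lines (limma). Abundance of the 20 neighbours tested differed for 6, 7 and 6 genes in the 3 pairs, beside the 39.8%, 33.5% and 38.1% over all genes.

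**Figure D4:**
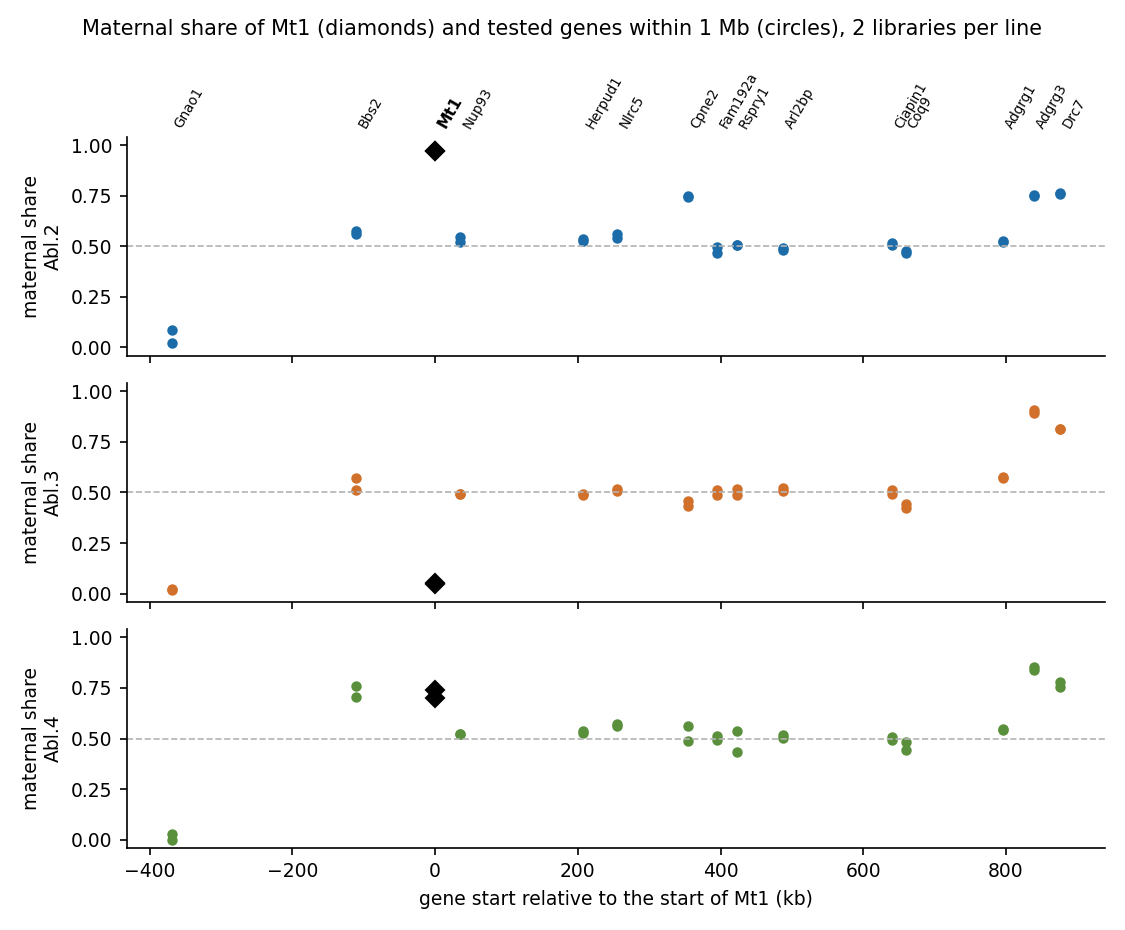
Maternal share (vertical axes) of Mt1 (diamonds) and of the 14 tested genes within 1 Mb (circles, both libraries) against the distance of each gene's start from that of Mt1 in kb, for each line. Mt1 moves from 0.97 to 0.05 to 0.72 while its neighbours Bbs2 and Nup93 stay between 0.49 and 0.76. In Abl.4, Bbs2 lies close to Mt1, at a mean of 0.734. Over all 14 genes, the mean shares of the lines run from 0.0133 to 0.9.

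The neighbours of Mtf1 were one-sided in the same line as Mtf1. Of 48 genes within 1 Mb, 8 were tested, and 8 of 8 differed between Abl.2 and each other line (edgeR). Between Abl.3 and Abl.4, 0 of 8 differed by edgeR and 0 by DESeq2, and 1 had an unadjusted p under 0.05. Their shares ran from 0.997 to 1.0 in Abl.2, from 0.355 to 0.533 in Abl.3 and from 0.474 to 0.552 in Abl.4. Over the 554 tested genes of chromosome 4 the percentages that differed in the 3 pairs were 98.0, 98.0 and 10.5. Abundance of the 18 tested neighbours differed for 4, 3 and 6 genes, beside the same 39.8%, 33.5% and 38.1%, and this sum of 13 fell to 3 and 6 without Abl.2 replicate 1 or 2, and to 4 and 6 without Abl.3 replicate 1 or 2.

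The named neighbours were Cdca8, a subunit of the chromosomal passenger complex of mitosis, at 0.9982 for Abl.2, 0.4593 for Abl.3 and 0.4742 for Abl.4, and Yrdc, which makes a modified base of tRNA, at 0.9992, 0.5215 and 0.5004. The nearest tested genes on either side, Mycbp (897.3 kb before) and 1110065P20Rik (47.0 kb after), were both at 1.0 in Abl.2 and between 0.5221 and 0.5521 in the other lines. The gene 1110065P20Rik overlaps the end of Mtf1 on the other strand, and 7.55% of the 50-base words of Mtf1 occur in it too, at 25.2 to 46.87 TPM.

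Around Slc30a1, 32 genes lay within 1 Mb, and of the 14 tested 7, 2 and 5 differed in the 3 pairs, beside 28.4%, 22.3% and 16.5% of all genes. This sum of 14 fell to 6 without Abl.2 replicate 1, to 5 without Abl.2 replicate 2, to 9 without Abl.3 replicate 1 and to 5 without Abl.3 replicate 2. It was 4 with DESeq2. The nearest tested genes on either side were Nek2, a centrosomal kinase, at 0.4897 in Abl.2 and 0.4307 in Abl.3 (edgeR adjusted p = 0.0365, between 0.104 and 0.161 when a library of either line was left out and 0.084 with DESeq2), and Traf5, a signalling adaptor of TNF receptors, at 0.4998 and 0.3986 (edgeR adjusted p = 0.0883). Abundance differed for 7, 6 and 4 of 17 genes, beside 39.8%, 33.5% and 38.1% of all genes. Nenf was almost wholly paternal in Abl.2 and Abl.4, at 0.001188 and 0.004294, and at 0.2371 in Abl.3 (edgeR adjusted p = 1.05e-06 for Abl.2 against Abl.3).

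The rest of the cell's metal handling was read from lists of zinc, copper and iron genes, of reported MTF1 targets, of antioxidant genes and of glucocorticoid-responsive genes. The lists hold 65 genes of the abundance table, and 49 had a mean of at least 1 TPM and were tested. In the line named first of a pair, 13 were higher and 12 lower, 6 higher and 15 lower, and 3 higher and 18 lower (limma). Over all genes, 25.9% were higher and 14.0% lower in the first pair, 15.0% and 18.4% in the second, and 11.3% and 26.8% in the third. The median difference of the listed genes was 0.06, -0.12 and -0.22 in log2(TPM + 1), beside 0.10, -0.03 and -0.15 over all genes.

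These counts lean on scaling and on single libraries. Over all genes, the share of calls that were higher in the first line was 65%, 44.9% and 29.8% in the 3 pairs, and 51.4%, 52.8% and 52% after quantile normalisation. The listed genes were then 9 higher and 13 lower, 8 and 14, and 5 and 11, and with edgeR on summed allelic counts 11 and 14, 7 and 8, and 8 and 13. The 25 calls of the first pair fell to 12 without Abl.2 replicate 1 and to 14 without Abl.2 replicate 2, Abl.3 replicate 1 or Abl.3 replicate 2. The 21 calls of the second pair fell to 11 without Abl.2 replicate 1, and the 21 of the third fell to 12 without Abl.3 replicate 2. The calls over all genes fell as well. Without Abl.2 replicate 1 they went from 4382 to 2622 in the first pair and from 3682 to 2040 in the second. Without Abl.3 replicate 2 they went from 4194 to 2348 in the third.

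Of the 10 tested zinc importers of the ZIP family, 6 were higher and 2 lower in Abl.2 than in Abl.3, 2 were higher and 2 lower in Abl.2 than in Abl.4, and 0 were higher and 5 lower in Abl.3 than in Abl.4. For that 0, no gene was higher at an unadjusted p under 0.05 either. On summed allelic counts of 9 of these genes, edgeR called 1 higher and 3 lower, and DESeq2 1 higher and 2 lower. Slc39a3, a zinc importer, had 39.3 and 32.95 TPM in the libraries of Abl.2, 14.76 and 13.56 in Abl.3, and 18.41 and 16.25 in Abl.4. Both libraries of Abl.2 were high, and its log2(TPM + 1) was 1.29 (SE 0.13) above Abl.3 (limma adjusted p = 5.47e-04). Slc39a14, which carries zinc, iron and manganese, went the other way, with 23.89 and 27.74 TPM in Abl.2 and 51.81 and 57.26 TPM in Abl.4, a difference of -1.05 (SE 0.13, limma adjusted p = 1.63e-03). Slc39a6 differed by 0.91 (SE 0.13) in the first pair, with Abl.2 above (limma adjusted p = 2.51e-03). Slc39a1, an importer of the cell surface, was lowest in Abl.3, at 4.27 and 3.89 TPM against 7.87 and 7.88 TPM in Abl.4 (limma adjusted p = 4.12e-03).

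The 5 tested zinc exporters other than Slc30a1 gave 1 higher in Abl.2 than in Abl.3, and 3 lower in each of Abl.2 and Abl.3 than in Abl.4 (limma). Of the 4 with enough allelic counts, edgeR and DESeq2 on summed allelic counts each called 1 lower in the second pair, and 1 higher and 2 lower in the third. In the first pair 0 were lower by limma, with 1 at an unadjusted p under 0.05, whereas edgeR called 1 higher and 1 lower, and DESeq2 0 higher and 1 lower. Slc30a4, which loads zinc into vesicles, had 5.01 and 6.67 TPM in the libraries of Abl.2, 4.76 and 5.58 in Abl.3, and 13.42 and 16.27 in Abl.4. It was thus high in the line in which Mt1 and Mt2 were low, at a difference of -1.36 (SE 0.17) for Abl.3 against Abl.4 (limma adjusted p = 1.83e-03). Slc30a5, an exporter of the secretory pathway, had 89.27 and 90.47 TPM in Abl.4 against 61.4 and 57.5 TPM in Abl.3 (limma adjusted p = 2.24e-03). Slc30a9 was -0.79 (SE 0.19) in Abl.2 against Abl.4 (limma adjusted p = 0.0209), and this call was lost without Abl.2 replicate 1 (0.122), without Abl.4 replicate 2 (0.103) and with no filter on low values (0.0581).

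Of 6 other genes reported as MTF1 targets, 1 was higher and 1 lower in Abl.2 than in Abl.3, 0 and 2 in Abl.2 against Abl.4, and 1 and 2 in Abl.3 against Abl.4 (limma). For the 0, 1 gene was higher at an unadjusted p under 0.05, and edgeR and DESeq2 on summed allelic counts each called 1, Pgf. With either tool on summed allelic counts, 0 of 5 were higher and 3 lower in Abl.2 than in Abl.3, and the 2 lower in Abl.3 than in Abl.4 became 0. Pgf, an angiogenic growth factor, had 7.34 and 7.26 TPM in the libraries of Abl.2, 19.85 and 16.53 in Abl.3, and 5.72 and 4.72 in Abl.4. Both libraries of Abl.3 were high, 1.62 (SE 0.14) above Abl.4 (limma adjusted p = 4.24e-04), and Abl.2 did not differ beyond the threshold from Abl.4 (limma adjusted p = 0.0658). Ndrg1, a stress-responsive gene, was -0.52 (SE 0.10) in Abl.2 against Abl.4 (limma adjusted p = 8.91e-03), and 0.0655 without Abl.2 replicate 2. Slc39a10, a zinc importer that MTF1 is reported to repress, was -0.49 (SE 0.13) in Abl.3 against Abl.4 (limma adjusted p = 0.0287), and lost under 9 alternatives, at adjusted p from 0.052 without Abl.2 replicate 2 to 0.314 after quantile normalisation. Selenow, a selenoprotein, was -0.29 (SE 0.06) in Abl.2 against Abl.4 (limma adjusted p = 0.0154), but 0.0998 and 0.0905 without Abl.2 replicate 1 or 2.

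Of 8 tested copper genes, 1 was higher and 3 lower in Abl.2 than in Abl.3, 1 and 2 against Abl.4, and 2 and 1 in Abl.3 against Abl.4 (limma). On summed allelic counts of 4 of these genes, edgeR and DESeq2 each called 0 higher, also at an unadjusted p under 0.05, and 2 lower in the first pair, where the gene higher by limma was Slc31a1. Ccs, the chaperone that delivers copper to SOD1, had 51.9 and 50.13 TPM in the libraries of Abl.2, 73.44 and 67.76 in Abl.3, and 31.58 and 27.15 in Abl.4. Abl.2 and Abl.3 were both above Abl.4, by 0.78 (SE 0.10, limma adjusted p = 1.90e-03) and 1.24 (SE 0.10, limma adjusted p = 3.05e-04). Its maternal share was 0.1753 in Abl.2 and 0.457 in Abl.3, and 0.9939 in the low line Abl.4 (edgeR adjusted p = 2.76e-09 for Abl.2 against Abl.4). Slc31a1, the copper importer, was -0.82 (SE 0.10) in Abl.3 against Abl.4 (limma adjusted p = 1.31e-03), and Sod1, a copper and zinc enzyme, 0.59 (SE 0.10) in the same pair (limma adjusted p = 4.86e-03). Cox17, which brings copper to mitochondria, was -0.72 (SE 0.17) in Abl.2 against Abl.4 (limma adjusted p = 0.0209), but 0.123 without Abl.2 replicate 1, 0.0896 without Abl.4 replicate 2 and 0.0606 with no filter on low values.

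Of 7 iron genes, 1 was higher and 3 lower in Abl.2 than in Abl.3, 1 and 2 against Abl.4, and 0 and 2 in Abl.3 against Abl.4 (limma). For that 0, no gene was higher at an unadjusted p under 0.05, and edgeR and DESeq2 on summed allelic counts each called 1 higher. Aco1, an iron-sensing protein that controls ferritin translation, had 35.46 and 35.85 TPM in the libraries of Abl.2, 1.36 and 0.7 in Abl.3, and 19.67 and 19.14 in Abl.4. It was nearly silent in Abl.3 alone, -3.35 (SE 0.17) against Abl.4 (limma adjusted p = 4.17e-05). Its maternal share was 0.9993 for Abl.2, 0.01791 for Abl.3 and 0.999 for Abl.4, so the line with the low level was the one with mainly paternal counts (edgeR adjusted p = 1.39e-09 for Abl.3 against Abl.4). Aco1 lies on chromosome 4. Hmox1, the heme-degrading enzyme, had 2.28 and 2.53 TPM in the libraries of Abl.2, 16.75 and 11.6 in Abl.3, and 14.52 and 12.51 in Abl.4, and was -2.14 (SE 0.19) in Abl.2 against Abl.3 (limma adjusted p = 3.56e-04). Fth1, a ferritin subunit, was -0.51 (SE 0.07) in Abl.2 against Abl.4 (limma adjusted p = 2.67e-03). Ftl1, the other subunit, was -0.35 (SE 0.11) in Abl.2 against Abl.3 (limma adjusted p = 0.0460), but between 0.0994 and 0.251 when a library of either line was left out, 0.145 after quantile normalisation and 0.153 with no filter on low values.

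Of 9 antioxidant genes of the NRF2 program, which also holds Hmox1, 1 was higher and 3 lower in Abl.2 than in Abl.3, 1 and 2 against Abl.4, and 0 in either direction in Abl.3 against Abl.4 (limma). In that last pair 2 had an unadjusted p under 0.05, both lower, and edgeR and DESeq2 on summed allelic counts each called 2 higher. Txnrd1, thioredoxin reductase, had 182.65 and 181.16 TPM in the libraries of Abl.2, 91.92 and 89.87 in Abl.3, and 86.25 and 80.19 in Abl.4. It was 1.12 (SE 0.07) above Abl.4 (limma adjusted p = 1.08e-04). Nfe2l2, the gene of NRF2 itself, was -0.48 (SE 0.08) in Abl.2 against Abl.3 (limma adjusted p = 4.08e-03). Gsr, glutathione reductase, was -0.52 (SE 0.13) in the same pair (limma adjusted p = 0.0214), but between 0.083 and 0.107 without Abl.2 replicate 1, Abl.3 replicate 1 or Abl.3 replicate 2, and 0.0513 with no filter on low values.

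Of 7 glucocorticoid-responsive genes, the receptor Nr3c1 included, 3 were higher and 1 lower in Abl.2 than in Abl.3, 1 and 3 against Abl.4, and 0 and 6 in Abl.3 against Abl.4 (limma). In that pair no gene was higher at an unadjusted p under 0.05 (limma), and edgeR and DESeq2 on summed allelic counts called 0 of 6 higher. On those counts edgeR called 6 of 6 lower and DESeq2 4. Sgk1, a kinase that controls ion transport, had 353.67 and 352.15 TPM in the libraries of Abl.2, 59.41 and 55.22 in Abl.3, and 120.19 and 107.38 in Abl.4. Abl.2 stood 2.60 (SE 0.09) above Abl.3 (limma adjusted p = 7.24e-06), and its maternal share was 0.343 for Abl.2, 0.9939 for Abl.3 and 0.4007 for Abl.4 (edgeR adjusted p = 6.59e-09 for Abl.2 against Abl.3). Dusp1, a phosphatase of MAP kinases, had 63.43 and 55.02 TPM in Abl.3 against 109.24 to 125.27 TPM in the other lines (limma adjusted p = 1.00e-03 for Abl.2 against Abl.3). Klf9 was -0.71 (SE 0.13, limma adjusted p = 7.80e-03) and Per1, a clock gene, -0.75 (SE 0.22, limma adjusted p = 0.0347) in Abl.3 against Abl.4. The call of Klf9 was lost after quantile normalisation (0.067) and with DESeq2 on summed allelic counts (0.0649). The call of Per1 was lost under 7 alternatives: without any 1 of 5 libraries, with no filter on low values and after quantile normalisation, at adjusted p up to 0.159.

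**Figure D5:**
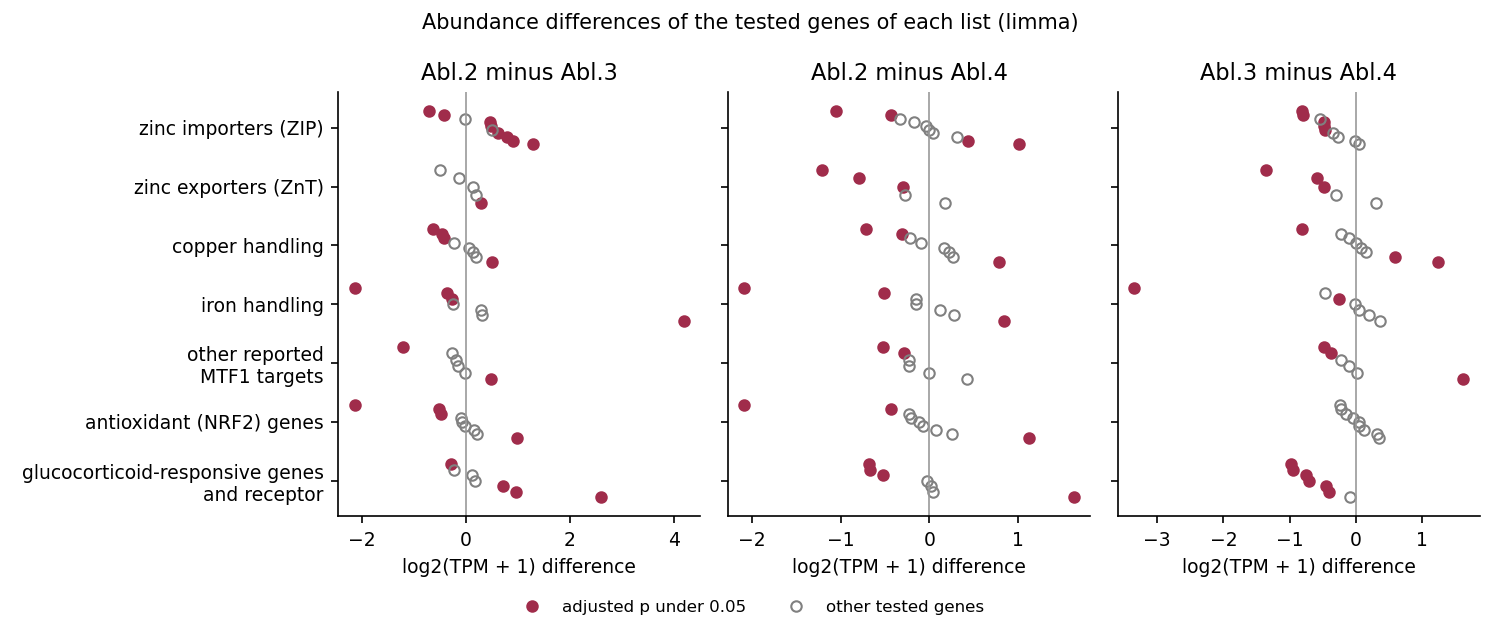
Differences in log2(TPM + 1) (horizontal axes) of the tested genes of each list for the 3 pairs of lines, with filled points for limma adjusted p under 0.05 and open points for the other genes. In the pair Abl.3 minus Abl.4, 5 ZIP and 3 ZnT genes that passed lie to the left of 0. Over all genes in this pair, 26.8% were lower and 11.3% higher in Abl.3 (limma).

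Of the 39 listed genes tested for allelic differences, 19, 11 and 13 differed in the 3 pairs, beside 28.4%, 22.3% and 16.5% of all genes (edgeR). Chromosome 10, with Slc39a3, Txnrd1 and Sgk1, had a median maternal share of 0.337 in Abl.2, and the X had 0.00115 in Abl.2 and 0.999 in Abl.3. Without chromosomes 4, 10 and X, the counts were 10, 6 and 8 of 30, beside 18.1%, 13.8% and 14.6% of all genes outside these chromosomes. The 13 calls fell to 7 without Abl.3 replicate 1, to 8 without Abl.3 replicate 2 and to 8 with DESeq2.

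The genes whose level over the 6 libraries was most like that of Mt1, by the root mean square difference of centred log2(TPM + 1), were Fmn1 (0.186), Pdgfa (0.312), Fbxo4 (0.335), Renbp (0.379) and Lgals3bp (0.52). Fmn1 had 15.58 and 15.6 TPM in the libraries of Abl.2, 9.54 and 9.89 in Abl.3, and 0.03 and 0.04 in Abl.4. The ranks hold for this scale, on which the 1 added to each TPM narrows differences for values near 0. Mt2 was at rank 7 of 11002, with 0.546. The genes most like Mt2 were Prkcq (0.282), Arl11 (0.354), Tmem108 (0.363), Rangrf (0.378) and Angptl2 (0.379), with Mt1 at rank 17. The 6 points of each comparison are 3 clones with 2 libraries each.

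By maternal share, the 5 of 8479 genes most like Mt1 were Mrps15 (root mean square difference 0.0616), Ttc30a1 (0.0904), Isoc2b (0.107), Zbtb42 (0.122) and Rbpjl (0.122). Mrps15, which lies on chromosome 4, had shares of 0.997 and 0.999 in Abl.2, 0.0019 and 0.0022 in Abl.3, and 0.644 and 0.626 in Abl.4. None of the 5 lies on chromosome 8.

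Of 5 markers of macrophages and monocytes, 2 reached 1 TPM in a library: Lyz2, at 157.64 to 192.76 TPM in Abl.2 and 70.84 to 96.46 TPM in the other lines, and Itgam, at 0.35 to 0.97 TPM in Abl.2 and Abl.3 and 6.74 to 6.89 TPM in Abl.4. Csf1r was at most 0.3 TPM, and Adgre1 and Cd14 were listed at 0. These 2 were highest in different lines. The summed level of the 5, nearly all of it Lyz2, was 158.1 to 193.1 TPM in Abl.2, 74.75 to 97.2 in Abl.3 and 77.88 to 89.39 in Abl.4, and its part in the levels of Mt1 and Mt2 was not tested.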

How the data were processed

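RNA was sequenced from 6 control libraries of 3 clonal B cell lines, 2 library preparations each. Replicate preparations differed beyond sampling noise, and p-values measure only this spread between preparations. The authors deposited maternal and paternal read counts at SNP positions for 19402 genes, transcript abundance in TPM, and a table of maternal fractions in which replicates were averaged and limits computed by a published method, per the file headers. The confidence level of those limits is not given in the sources used here. STAR 2.5.4a, SAMtools, GATK and DESeq2 are named in the submitters' processing notes, without roles. The file header says that the TPM were made with DESeq2, which does not itself give TPM, so how they were computed is uncertain. The depth behind the TPM values is unknown, and the allelic counts per library are given in the report. Start and end were the same as in GENCODE M21 (GRCm38) for 98.2% of 35412 genes.

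Maternal and paternal counts of each library were compared with the quasi-likelihood test of edgeR 4.0.16 for 8702 genes with at least 20 allelic counts in every library. Abundance came as TPM and not as counts, so log2(TPM + 1) was tested with limma 3.58.1 (R 4.3.3) for the 11003 genes whose mean reached 1 TPM. All 6 libraries entered each fit, and p-values were adjusted by Benjamini-Hochberg over all genes at 0.05. Both methods were checked on simulated data in which 200 genes were changed in Abl.3, and values are given for Abl.3 against Abl.2 and against Abl.4. For the allelic test (8480 genes, log2 change 2), 97.5% and 96.5% were called, and 5.34% and 7.66% of calls were false. For the abundance test (10842 genes, log2 change 1), 68.5% and 65.5% were called, and 5.52% and 3.68% of calls were false. Of these 4 rates, 3 were above the nominal 5%. The simulated noise was independent between genes, with the same spread of shares for all genes in the allelic test, which left out X genes. Far fewer genes were changed than were called in the data, so the rates hold for the simulated setting and need not hold for the data. Values of the 4 members carry no test. The 95% intervals are Wilson intervals, and a count of 0 was given the limit of 3 counts over the total. Genes named besides the members were the nearest tested gene on each side within 1 Mb, up to 3 with the smallest p and a share difference of at least 0.2, up to 4 genes per list with the largest difference at a mean of at least 5 TPM, and the 5 most like Mt1 or Mt2. A gene that this rule also names is not reported here. The members and lists were chosen with earlier results of these data known. Alternatives were DESeq2 1.42.0, other minimums, pseudocounts and scalings, a window of 0.25 Mb, summed allelic counts, a replicate block and each library left out. Leaving out chromosomes 4, 10 and X was chosen after seeing the data.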

Additional observations from a re-analysis of the deposited data

Results flagged for a closer look

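The values here are differences in maternal share between lines. For Mt1 and Mt2 both libraries of Abl.2 lay on the maternal side and both of Abl.3 on the paternal side. The difference, Abl.2 minus Abl.3, was 0.921 for Mt1 and 0.9288 for Mt2, and it was not tested because these values chose the genes.

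For the following genes the edgeR test of the difference between lines was passed. Beside Mt1, Cpne2 differed by 0.3003 between Abl.2 and Abl.3. Beside Mtf1 on chromosome 4, the same pair differed by 0.4779 in Mycbp, 0.4764 in 1110065P20Rik, 0.539 in Cdca8 and 0.4776 in Yrdc. Nenf, beside Slc30a1, differed by -0.2359. Among the listed metal and stress genes, Aco1 differed by 0.9814, Slc31a1 by 0.4754 and Sgk1 by -0.6509, each as Abl.2 minus Abl.3. Aco1 and Slc31a1 lie on chromosome 4. Ccs differed by -0.8186 between Abl.2 and Abl.4.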

How the results depend on the processing

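Of 33 named differences that passed, 23 passed under every alternative run, 10 were lost under at least 1 (Cox17, Ftl1, Gsr, Klf9, Ndrg1, Nek2, Per1, Selenow, Slc30a9 and Slc39a10) and 0 changed sign. Of 137 alternative values for 23 values of the members, 9 moved by more than the spread between libraries. Part of the 137 could not move that far. With 2 libraries per line, leaving out 1 library or pooling the counts of both always stays within this spread. The low count is thus no measure of stability. The share of Mt1 in Abl.2 was 0.97 and that of Mtf1 1 in the authors' deposited table, which rounds to 2 decimals. The log2 difference of Mt1 between Abl.2 and Abl.3 was 0.33 with TPM and -0.059 with summed allelic counts. Against Abl.4, the Mt2 differences were 2.19 and 2.92 with a pseudocount of 5, and the Mt2 difference of Abl.2 and Abl.3 was -0.88 after quantile normalisation. For Abl.3 and Abl.4, quantile normalisation gave 0.51 for Mtf1 and 0.15 for Slc30a1, and summed counts gave 0.09 for Slc30a1. The cause was not tested.

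With windows of 0.25 Mb, fewer genes were tested: allelic calls, summed over the pairs, were 2 of 9 for Mt1, 8 of 12 for Mtf1 and 2 of 9 for Slc30a1, and abundance calls 6 of 18 for Mt1 and 2 of 12 for Slc30a1. With DESeq2 the listed genes with an allelic difference between Abl.3 and Abl.4 were 8 (13 with edgeR) and the Slc30a1 window had 4 (14). Without chromosomes 4, 10 and X, 10, 6 and 8 of 30 listed genes had an allelic difference. Leaving out each library gave 7 to 11 listed genes with an allelic difference between Abl.3 and Abl.4, 6 to 10 calls in the Mt1 window, 5 to 15 in the Slc30a1 window and 3 to 16 abundance calls in the Mtf1 window. Over all genes, abundance calls were then 2529 to 4565, 2040 to 3269 and 2336 to 3659 in the 3 pairs, and listed calls 12 to 25, 11 to 18 and 12 to 17.

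A replicate block kept every named call. It gave 2404, 1894 and 1343 genes with an allelic difference (2475, 1942 and 1432 without it), 3798, 3368 and 2952 with unequal alleles, and 5213, 4608 and 5184 with an abundance difference (4382, 3682 and 4194). With the block, listed abundance calls were 28, 25 and 28 (25, 21 and 21 without it), and those in the Mt1 window 27 (19). Listed allelic calls were 18, 11 and 11 (19, 11 and 13). The labels only number the preparations. Deviations of libraries with the same number correlated at 0.104, 0.187 and 0.161 in the 3 pairs, over 2 pairs of libraries each.

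Few allelic counts limit the shares of Mt2, whose 4 and 9 in Abl.4 gave none, and of Slc30a1, with 47 to 129.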
